A study of Homo sapiens with 24 samples.

Results

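POLR1A, POLR2A and POLR3A encode the largest subunits of RNA polymerases I, II and III, and POLR1B, POLR2B and POLR3B encode the second largest. These 6 mRNAs were found by their symbols in a table of 28307 genes, and all 6 were present and passed the filter on low counts in every fit. Their counts were followed through RNA immunoprecipitation sequencing, in which a GFP-tagged protein is pulled from a cell lysate and the RNA that comes with it is sequenced. The cells were HCT116, a human colorectal carcinoma line, in which GFP had been knocked into either RUVBL1 or RPAP3, so that every library carried a tagged protein. The labels do not say whether either knock-in was a single clone. Lysates were passed over anti-GFP beads (GFP-Trap, here GFP beads) or over plain agarose beads (here uncoupled beads), which give the background. No library came from untagged cells. Within a line, RNA held by the anti-GFP beads or by GFP itself thus cannot be told apart from RNA held by the tagged protein.

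The RUVBL1 line was untreated, given puromycin (100 µg/mL for 30 min), given CB-6644 (0.5 µM for 16 h), or given both. The RPAP3 line was untreated or given puromycin at that dose and time. Each of the 12 combinations of line, drug and beads had 2 libraries, numbered 1 and 2 in the RUVBL1 line and A and B in the RPAP3 line. Nothing in the labels ties replicates to separate cultures, and the p-values therefore reflect the spread of the libraries alone, which may be technical.

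Each nuclear RNA polymerase is a complex of many proteins built around a pair of large subunits that together form the active centre. The largest subunit of RNA polymerase II also carries the long repeat tail that is phosphorylated during transcription. The polymerases are put together in the cytoplasm with the help of chaperones before they enter the nucleus. R2TP is an HSP90 co-chaperone in which RPAP3 is the scaffold and RUVBL1 and RUVBL2 form an AAA+ ATPase ring, and it is known for its part in polymerase assembly. Puromycin is built into growing protein chains and releases them from the ribosome, so RNA held through a nascent chain is lost, and CB-6644 inhibits the ATPase of RUVBL1 and RUVBL2.

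On the GRCh38.p14 annotation of RefSeq, all 6 are protein-coding genes. POLR1A lies on chromosome 2 from 86020216 to 86105886, and POLR1B on the same chromosome from 112542036 to 112579818. POLR2A lies on chromosome 17 from 7484366 to 7514616, and POLR2B on chromosome 4 from 56978896 to 57031158. POLR3A lies on chromosome 10 from 77975149 to 78029515, and POLR3B on chromosome 12 from 106357748 to 106510198.

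The RUVBL1 libraries held 9019665 to 33051512 counts each and the RPAP3 libraries 30844089 to 50394245. All 8 epithelial markers looked for were present in every library, and of 12 markers of blood, stroma, liver and endothelium 10 had a median under 1 CPM. In the RUVBL1 line, 3 libraries stood apart on the first 2 principal components. These were replicate 2 on GFP beads with CB-6644, replicate 1 on GFP beads with both drugs, and replicate 2 on uncoupled beads without drug. Levels are given as CPM, counts scaled by depth and by the TMM factor within each line, and are compared between libraries and not between genes, since transcript length was not used here. Enrichment is the log2 difference between GFP beads and uncoupled beads of the same line and drug, and calls were made with edgeR's quasi-likelihood test where the p adjusted over all genes tested by Benjamini and Hochberg was under 0.05.

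With RPAP3 as the tagged protein and no drug, all 3 largest-subunit mRNAs and POLR2B were recovered far above uncoupled beads, while POLR1B and POLR3B lay close to background. POLR1A had 1387 and 2536 CPM on GFP beads against 32.7 and 35.1 CPM on uncoupled beads. Its enrichment was 5.85 ± 0.26 (log2 ± SE, 57.8-fold), which ranked 15 of 15202 genes (adjusted p = 7.81e-09). POLR2A had 4775 and 7177 CPM on GFP beads against 138 and 156 CPM on uncoupled beads. Both GFP libraries thus lay more than an order of magnitude above both uncoupled libraries for these mRNAs, and the POLR2A enrichment was 5.34 ± 0.20 (40.5-fold, rank 22, adjusted p = 9.45e-14). POLR3A, the largest subunit of the polymerase that makes tRNA and 5S rRNA, had 291 and 431 CPM against 22.0 and 20.4 CPM. Its enrichment was 4.09 ± 0.18 (17.0-fold, rank 33, adjusted p = 9.77e-13).

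The second largest subunits were not alike. POLR2B had 586 and 554 CPM on GFP beads of the RPAP3 line against 66.5 and 59.0 CPM on uncoupled beads, an enrichment of 3.18 ± 0.14 (9.09-fold, rank 53, adjusted p = 5.89e-13). POLR1B had 42.5 and 40.2 CPM against 35.3 and 31.4 CPM, a log2 difference of 0.31 ± 0.13 (95% interval 0.04 to 0.58, adjusted p = 0.496). POLR3B had 10.9 and 9.23 CPM against 8.69 and 7.47 CPM, a log2 difference of 0.32 ± 0.20 (-0.08 to 0.73, adjusted p = 0.785). For POLR1B and POLR3B the difference did not pass the test, and their intervals end below a 2-fold difference. Of the 6 mRNAs, 4 were called higher, where 1.53% of all genes tested were. The median enrichment of the 6 was 3.64 and that of all genes tested was -0.01. These 4 calls held under every alternative and with any 1 library left out.

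**Figure D1:**
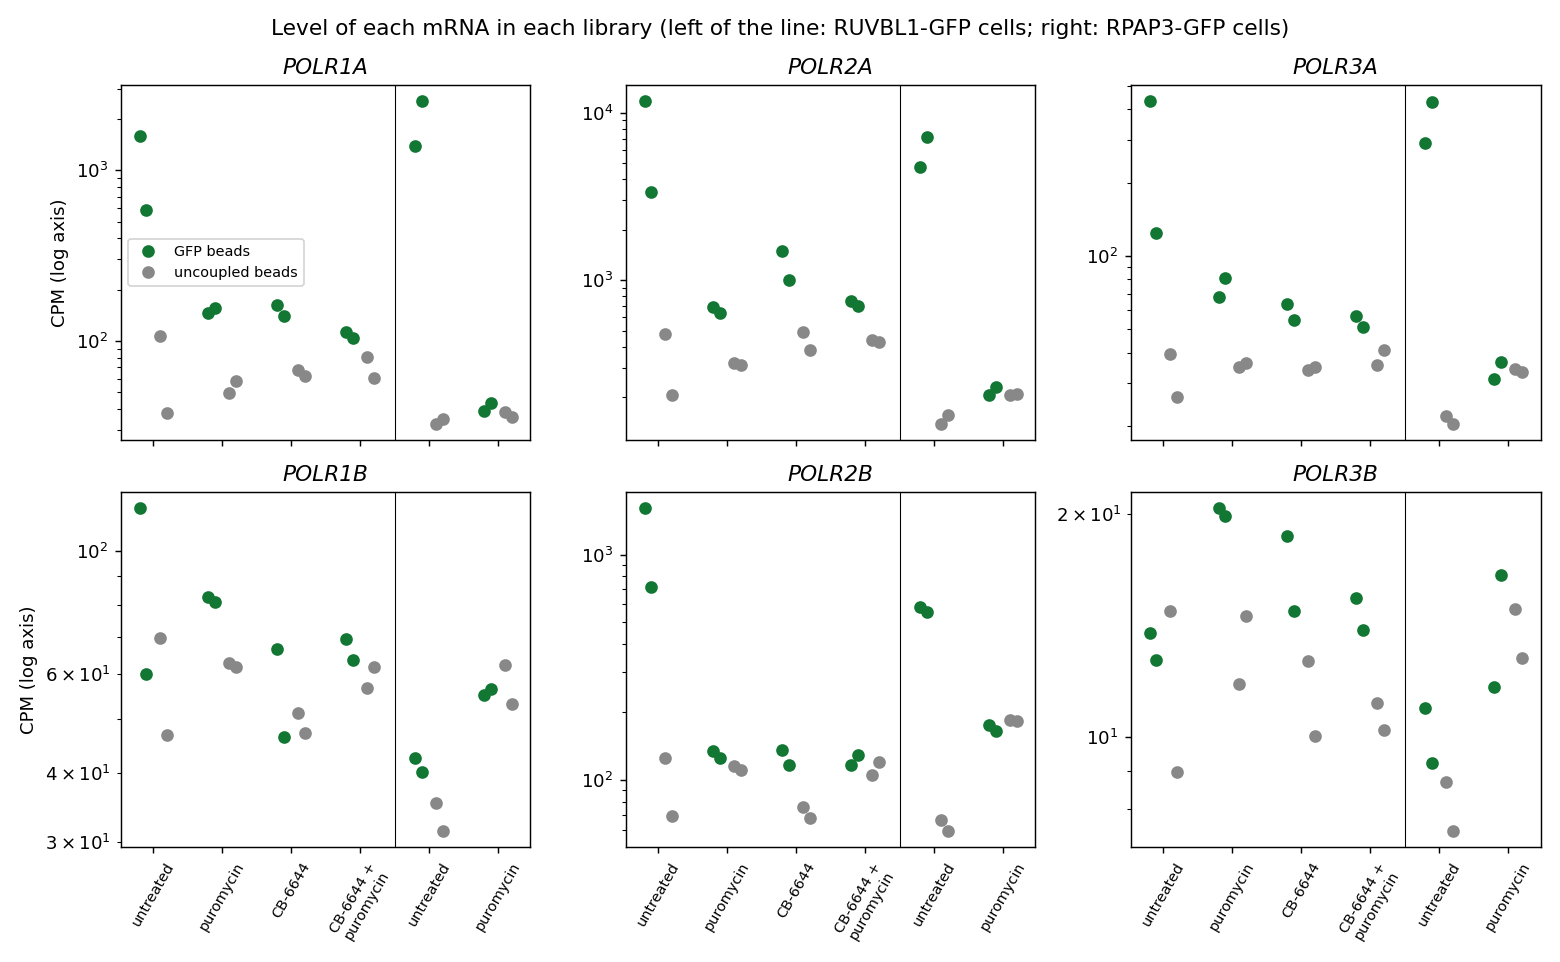
Level of each mRNA in each of the 24 libraries, in CPM on a log axis that differs between panels, with 1 point per library. Green points are GFP beads and grey points uncoupled beads, with the RUVBL1 line left of the vertical line and the RPAP3 line right of it. POLR1A, POLR2A, POLR3A and POLR2B stand farthest above grey in the untreated GFP libraries of each line, and POLR1B and POLR3B stay near grey in all panels.

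The same 4 mRNAs were enriched with RUVBL1 in untreated cells. POLR1A had 1585 and 587 CPM on GFP beads against 106 and 38.1 CPM on uncoupled beads, an enrichment of 3.90 ± 0.48 (14.9-fold, adjusted p = 0.0008). POLR2A had 11746 and 3349 CPM against 477 and 205 CPM, an enrichment of 4.47 ± 0.51 (22.1-fold, adjusted p = 9.85e-05). In both cases replicate 1 was the higher library on both kinds of beads, and the lower GFP library still lay several-fold above the higher uncoupled library. POLR3A had 433 and 124 CPM against 39.6 and 26.3 CPM, an enrichment of 3.07 ± 0.42 (8.40-fold, adjusted p = 0.00226). POLR2B had 1601 and 714 CPM against 125 and 69.0 CPM, an enrichment of 3.57 ± 0.33 (11.9-fold, adjusted p = 6.24e-07).

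In the RUVBL1 line these mRNAs ranked 72 (POLR2A), 86 (POLR1A), 97 (POLR2B) and 126 (POLR3A) of 15976 genes by enrichment. POLR1B had 119 and 60.2 CPM on GFP beads and 69.6 and 46.6 CPM on uncoupled beads, so the groups overlapped (log2 difference 0.62 ± 0.26, 95% interval 0.08 to 1.17, adjusted p = 0.371). POLR3B had 13.8 and 12.7 CPM against 14.8 and 8.97 CPM, which also overlapped (0.14 ± 0.27, -0.41 to 0.70, adjusted p = 0.891). In this line 4 of 6 were called higher against 0.914% of all genes tested, and the median of the 6 was 3.32 against -0.04 for all genes. Without uncoupled replicate 2, a library of 10974407 counts that stood apart, POLR3A was no longer called (2.81, adjusted p = 0.103). Its enrichment was 1.91 without GFP replicate 1 and 3.71 without GFP replicate 2, and it was called in both cases. POLR1A, POLR2A and POLR2B were called without any 1 of the 4 libraries compared. Their enrichments were lowest without GFP replicate 1 (3.02, 3.30 and 2.88) and highest without uncoupled replicate 1 (4.84, 5.21 and 4.08).

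**Figure D2:**
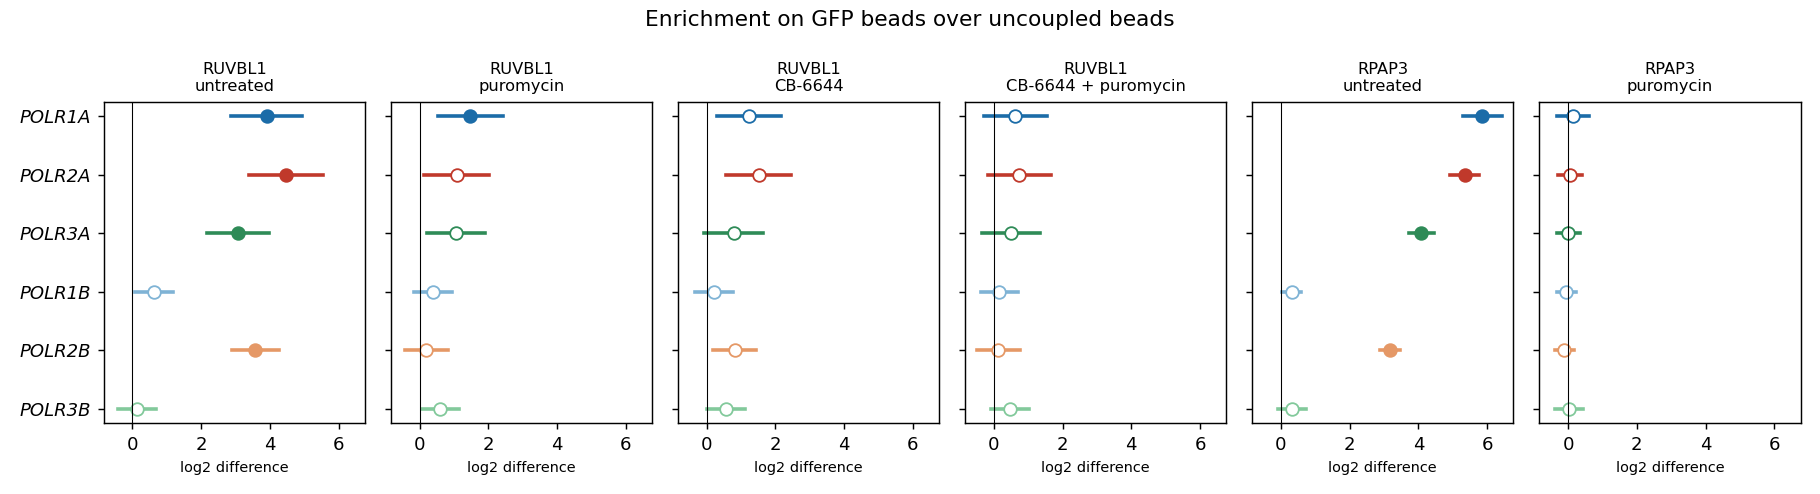
Enrichment of each mRNA in the 6 combinations of line and drug, as the log2 difference between GFP beads and uncoupled beads with 95% intervals. Filled points passed the test across all genes and open points did not. The 4 filled points in each untreated panel are POLR1A, POLR2A, POLR3A and POLR2B, and the RPAP3 panel with puromycin has all 6 points near 0.

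Puromycin asks whether recovery needed an intact nascent chain. In the RPAP3 line, 30 min of the drug brought all 4 enriched mRNAs down to background. POLR1A fell from a mean of 1962 ± 812 CPM (SD, n = 2) to 41.3 ± 3.4 CPM on GFP beads, a 47.5-fold lower level, with 38.9 and 43.6 CPM in the treated GFP libraries against 38.6 and 36.0 CPM on uncoupled beads. POLR2A fell from 5976 ± 1698 to 218 ± 19 CPM (27.4-fold), with 205 and 231 CPM against 207 and 209 CPM. After puromycin the GFP libraries therefore lay within a few CPM of uncoupled beads for POLR1A and around them for POLR2A. POLR3A fell from 361 ± 99 to 33.9 ± 4.0 CPM (10.6-fold), with 31.1 and 36.7 CPM against 34.1 and 33.4 CPM.

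POLR2B fell less on GFP beads, from 570.0 ± 22.3 to 169.7 ± 7.0 CPM (3.36-fold). Its level on uncoupled beads rose over the same treatment from 62.8 ± 5.3 to 183 ± 0.3 CPM, so that its treated GFP libraries (175 and 165 CPM) ended below both treated uncoupled libraries (183 CPM each). Taken as the change in enrichment, POLR1A fell by 5.71 ± 0.32 on the log2 scale (adjusted p = 2.17e-07), POLR2A fell by 5.27 ± 0.25 (adjusted p = 1.6e-11), POLR3A fell by 4.08 ± 0.23 (adjusted p = 1.93e-10) and POLR2B fell by 3.29 ± 0.19 (adjusted p = 1.54e-10). The change was -0.36 ± 0.18 for POLR1B and -0.30 ± 0.28 for POLR3B, and neither was called (both adjusted p = 1.0). These 4 calls of 6 compare with 0.243% of all genes tested called lower, 37 genes in number, and all 4 held under every alternative and with any 1 library left out.

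Enrichment left after puromycin in the RPAP3 line was between -0.11 (POLR2B) and 0.14 (POLR1A), with 95% intervals that all lay between -0.38 and 0.62. None of the 6 was called, where 0.46% of all genes tested were higher. The adjusted p was 0.999 for each, 629 genes of the table had an unadjusted p under 0.05, and DESeq2 also called none of the 6.

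Uncoupled beads give the background behind these enrichments, and in the RPAP3 line that background moved with puromycin for 5 of the 6 mRNAs. POLR2B rose by 1.54 ± 0.13 (2.92-fold, adjusted p = 8.86e-09), POLR1B by 0.79 ± 0.13 (1.73-fold, adjusted p = 4.45e-05) and POLR3B by 0.78 ± 0.20 (1.72-fold, adjusted p = 0.00255). POLR3A rose by 0.67 ± 0.16 (1.59-fold, adjusted p = 0.00185) and POLR2A by 0.50 ± 0.17 (1.41-fold, adjusted p = 0.0211). POLR1A was not called (0.14 ± 0.22, adjusted p = 0.657), though both treated libraries lay above both untreated ones. Calls on uncoupled beads were common in this line, at 43% of all genes tested in either direction and 23.5% higher, and the count of 5 of 6 is read against those shares. Those calls were 3577 higher and 2955 lower, or 2862 and 4310 under upper-quartile scaling. POLR2A lost its call under total-count scaling (0.42, adjusted p = 0.0579), under upper-quartile scaling (0.33, adjusted p = 0.109), and without any of uncoupled puromycin replicate A, uncoupled puromycin replicate B or untreated replicate A (0.45 to 0.50, adjusted p = 0.0818 to 0.113). Uncoupled beads carry whatever RNA sticks to them, so a change in total cellular RNA and a change in what sticks cannot be told apart.

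In the RUVBL1 line GFP bead levels with puromycin were 3.75-fold (POLR3A) to 11.3-fold (POLR2A) lower for the 4 enriched mRNAs, and 2 of 6 changes in enrichment passed the test. POLR1A went from 1585 and 587 CPM to 145 and 155 CPM, POLR2A from 11746 and 3349 to 695 and 639 CPM, and POLR3A from 433 and 124 to 67.5 and 80.9 CPM. For each, the lower untreated GFP library lay above both treated ones. POLR2B went from 1601 and 714 to 134 and 125 CPM. Its enrichment fell by 3.37 ± 0.44 (adjusted p = 0.000199), and that of POLR2A fell by 3.39 ± 0.64 (adjusted p = 0.0464). Changes of -2.42 ± 0.61 for POLR1A (adjusted p = 0.181) and -2.01 ± 0.56 for POLR3A (adjusted p = 0.216) did not pass, with 95% intervals of -3.74 to -1.10 and -3.22 to -0.81. POLR1B (-0.23 ± 0.37) and POLR3B (0.47 ± 0.38) were not called.

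The 2 calls compare with 0.0751% of all genes tested called lower, 12 genes in number, and the median change of the 6 was -2.22 against 0.05 for all genes. The call of POLR2A was lost under total-count scaling (-3.28, adjusted p = 0.153) and without GFP untreated replicate 1 (-2.22, adjusted p = 0.165), GFP puromycin replicate 1 or 2 (-3.47 and -3.34), or uncoupled puromycin replicate 1 or 2 (-3.38 and -3.40), with adjusted p of 0.123 to 0.453 over those 5. Conversely POLR1A was called without GFP untreated replicate 2 (-2.97, adjusted p = 0.0038) and without uncoupled untreated replicate 1 (-3.37, adjusted p = 0.0176), POLR3A was called without GFP untreated replicate 2 (-2.65, adjusted p = 8.53e-05), and DESeq2 called 4 of the 6. In the other direction, without GFP untreated replicate 1 the change was -1.54 for POLR1A (adjusted p = 0.595) and -0.84 for POLR3A (adjusted p = 0.806). POLR2B was called without any 1 of the 8 libraries, at -3.88 (without uncoupled untreated replicate 1) to -2.68 (without GFP untreated replicate 1).

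With puromycin, edgeR called RUVBL1 enrichment for POLR1A alone of the members, and that call was lost with any 1 compared library left out. POLR1A had 145 and 155 CPM on GFP beads against 49.5 and 58.0 CPM on uncoupled beads, an enrichment of 1.48 ± 0.44 (2.79-fold, adjusted p = 0.0373). POLR2A had 695 and 639 CPM against 319 and 313 CPM (1.08 ± 0.44, adjusted p = 0.119), and POLR3A had 67.5 and 80.9 CPM against 35.1 and 36.2 CPM (1.06 ± 0.40, adjusted p = 0.0942). For all 3 the GFP libraries lay above both uncoupled libraries, as they did for 31.8% of all genes tested. POLR2B, at 134 and 125 CPM against 115 and 111 CPM, was closest to its background (0.20 ± 0.30, adjusted p = 0.733). POLR3B had its highest level in the line here, 20.3 and 19.9 CPM against 11.8 and 14.6 CPM (0.61 ± 0.26, adjusted p = 0.132), and POLR1B had 82.5 and 81.0 CPM against 63.0 and 61.9 CPM (0.39 ± 0.26, adjusted p = 0.362).

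Only POLR1A was called, 1 of 6, where 9.95% of all genes tested were called higher. Those 1590 calls became 301 (without uncoupled puromycin replicate 1) to 1240 (without GFP puromycin replicate 1) with 1 library left out. They stood beside 611 lower calls, and under upper-quartile scaling 1361 were higher and 1181 lower. All 6 mRNAs had both GFP libraries above both uncoupled libraries, as did 31.8% of all genes tested. The call of POLR1A was lost without any 1 of the 4 libraries compared. Its enrichment was then 1.52 and 1.43 without GFP puromycin replicate 1 and 2, and 1.37 and 1.60 without uncoupled puromycin replicate 1 and 2, with adjusted p of 0.113 to 0.275.

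**Figure D3:**
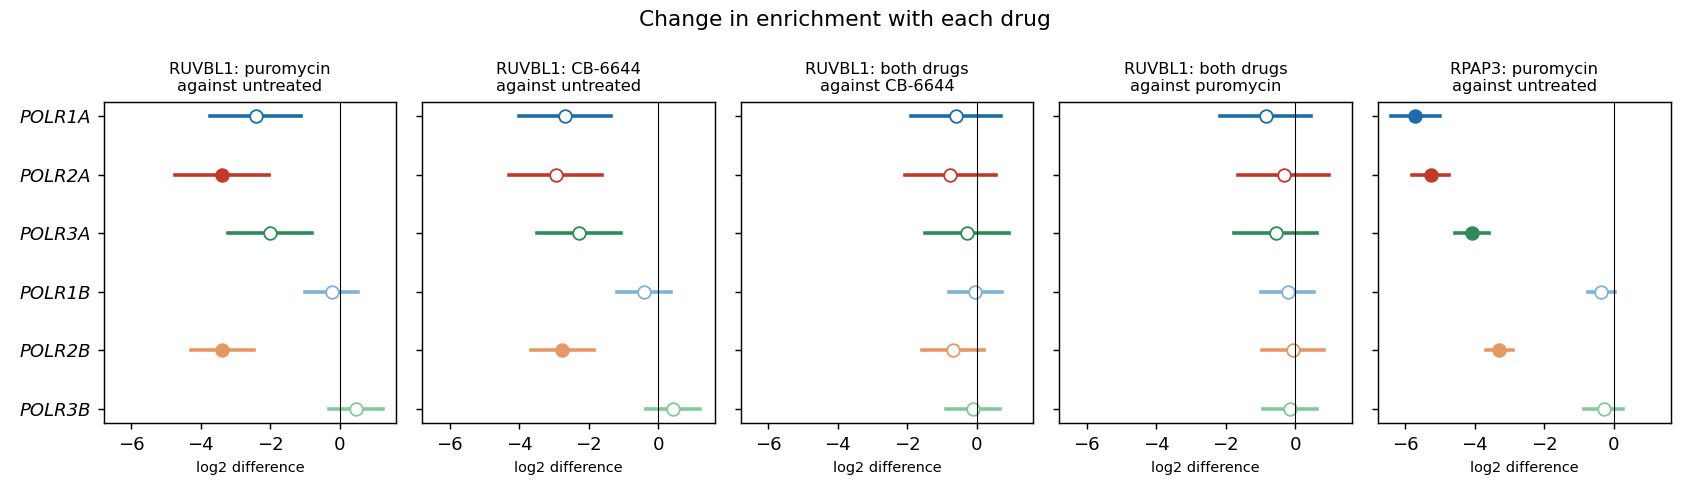
Change in enrichment of each mRNA with each drug, as a log2 difference of enrichments with 95% intervals. Filled points passed the test across all genes. In the RPAP3 panel 4 intervals lie far from 0, and in the RUVBL1 panels with a single drug the intervals of POLR1A, POLR2A, POLR3A and POLR2B lie below 0 although only 2 (puromycin) and 1 (CB-6644) passed.

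CB-6644 asks whether recovery with RUVBL1 depended on the ATPase that the compound inhibits. After 16 h, POLR2B had 136 and 116 CPM on GFP beads against 75.7 and 67.9 CPM on uncoupled beads, and its enrichment fell by 2.76 ± 0.43 (adjusted p = 0.00199). POLR2A had 1484 and 1001 CPM against 489 and 381 CPM, a change of -2.95 ± 0.63 (adjusted p = 0.0787). POLR1A had 162 and 140 CPM against 67.4 and 62.5 CPM, a change of -2.68 ± 0.61 (adjusted p = 0.131). On GFP beads the treated libraries of all 3 lay below the lower untreated library, and the mean level was 9.18-fold (POLR2B), 6.07-fold (POLR2A) and 7.19-fold (POLR1A) lower.

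POLR3A had 63.3 and 54.7 CPM on GFP beads with CB-6644 against 33.9 and 34.8 CPM, a change of -2.29 ± 0.56 (adjusted p = 0.166). POLR1B had 66.7 and 46.3 CPM against 51.1 and 47.0 CPM (change -0.41 ± 0.37), and POLR3B had 18.7 and 14.8 CPM against 12.7 and 10.0 CPM (change 0.42 ± 0.38), neither of them called. The single call, POLR2B, compares with 0.0501% of all genes tested called lower, 8 genes in number, and the median change of the 6 was -2.49 against 0.04 for all genes. POLR1A, POLR2A and POLR3A were all called without GFP untreated replicate 2 (-3.24, -3.60 and -2.94, adjusted p = 0.00153, 0.000575 and 4.1e-05). Without GFP untreated replicate 1 the same changes were smaller and not called (-1.81, -1.79 and -1.13, adjusted p = 0.325, 0.347 and 0.494). POLR1A and POLR2A were also called without uncoupled untreated replicate 1 (-3.63 and -3.70, adjusted p = 0.00543 and 0.0328), and DESeq2 called 4 of the 6. POLR2B was called without any 1 of the 8 libraries, at -3.27 (without uncoupled untreated replicate 1) to -2.07 (without GFP untreated replicate 1). This change and the puromycin change in the RUVBL1 line share their untreated libraries, so the values stand side by side and are not independent.

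The enrichment that remained with CB-6644 was 1.51 ± 0.45 for POLR2A (adjusted p = 0.0748), 1.22 ± 0.43 for POLR1A (adjusted p = 0.13), 0.81 ± 0.30 for POLR2B (adjusted p = 0.127) and 0.78 ± 0.40 for POLR3A (adjusted p = 0.264). It was 0.56 ± 0.27 for POLR3B and 0.21 ± 0.26 for POLR1B. No member was called by edgeR, where 1.87% of all genes tested were higher (298 genes, and 771 under total-count scaling, beside 89 and 47 lower) and 3531 had an unadjusted p under 0.05, while DESeq2 called POLR1A, POLR2A and POLR2B. Both GFP libraries lay above both uncoupled libraries for 5 of the 6 mRNAs, the exception being POLR1B, and for 23.1% of all genes tested. GFP replicate 2 of this treatment, with 9019665 counts, was 1 of the libraries that stood apart, and no member was called without it. With 1 library left out the 298 calls became 52 (without uncoupled replicate 2) to 1560 (without GFP replicate 1).

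With both drugs the GFP levels of the largest subunits were close to those with CB-6644 alone or below them. POLR1A had 113 and 105 CPM against 80.3 and 61.1 CPM on uncoupled beads, POLR2A 752 and 704 against 438 and 430 CPM, and POLR3A 56.8 and 51.0 against 35.6 and 40.9 CPM. Their enrichments were 0.62 ± 0.43, 0.75 ± 0.44 and 0.50 ± 0.39. POLR2B had 117 and 129 CPM against 105 and 120 CPM, POLR1B 69.4 and 63.7 against 56.7 and 62.0 CPM, and POLR3B 15.4 and 14.0 against 11.1 and 10.2 CPM. Enrichment was not called for any of the 6 (adjusted p = 0.642 to 0.917), where 0.557% of all genes tested were higher and 1364 had an unadjusted p under 0.05, and DESeq2 called none. Both GFP libraries lay above both uncoupled libraries for 5 of 6, all but POLR2B, and for 22.7% of all genes.

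Puromycin on top of CB-6644 changed the enrichment by -0.77 ± 0.62 for POLR2A, -0.68 ± 0.43 for POLR2B and -0.60 ± 0.61 for POLR1A, and by -0.29 to -0.04 for the other 3. CB-6644 on top of puromycin changed it by -0.86 ± 0.61 for POLR1A and by -0.56 to -0.07 for the others. None of the 6 was called in either by edgeR or by DESeq2. Of all genes tested, 0.0501% were called lower in the first and 0.0313% in the second, and 329 and 1359 had an unadjusted p under 0.05. The 95% intervals were wide, -2.08 to 0.54 for POLR2A in the first and -2.16 to 0.44 for POLR1A in the second.

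On uncoupled beads of the RUVBL1 line no member was called with puromycin (-0.44 to 0.21) or with CB-6644 (-0.44 to 0.35). Neither edgeR test called any gene, 0% of all genes tested with puromycin and 0% with CB-6644, with 1464 and 860 genes at an unadjusted p under 0.05, and DESeq2 called none of the 6. The untreated uncoupled pair of this line was wide, for example 106 and 38.1 CPM for POLR1A. With puromycin the 95% intervals of POLR2A (-1.04 to 0.81) and POLR3A (-0.75 to 0.96) include the rises seen on uncoupled beads of the RPAP3 line. The interval of POLR2B (-0.41 to 0.84) ends below the interval of its rise there (1.27 to 1.82). Those of POLR1B (-0.45 to 0.64) and POLR3B (-0.42 to 0.69) end below the rises there. They overlap the intervals of those rises, 0.52 to 1.07 and 0.38 to 1.19. The difference between the lines on uncoupled beads was not tested.

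Ordered by mean level on GFP beads of the RUVBL1 line, POLR1A ran from 1086 ± 705 CPM untreated to 151 ± 16 with CB-6644, 150.0 ± 7.2 with puromycin and 109 ± 6 with both, and the single-drug groups overlapped. POLR2A ran from 7547 ± 5938 untreated to 1243 ± 342 with CB-6644, 728 ± 34 with both and 667 ± 40 with puromycin. POLR3A ran from 278 ± 219 to 74.2 ± 9.4 with puromycin, 59.0 ± 6.1 with CB-6644 and 53.9 ± 4.1 with both, the last of which overlapped the group with CB-6644. POLR2B ran from 1158 ± 627 to 129.5 ± 5.9 with puromycin, 126 ± 14 with CB-6644 and 123 ± 9 with both, and the 3 treated groups overlapped one another. POLR1B stayed between 56.5 ± 14.5 (CB-6644) and 89.7 ± 41.6 CPM (untreated), and the untreated pair spanned all other groups except replicate 2 with CB-6644. POLR3B alone was lowest in untreated cells, at 13.3 ± 0.8 CPM, and highest with puromycin, at 20.1 ± 0.3 CPM. The order of levels on GFP beads was not tested.

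The lines were also compared with each other, in a fit of all 24 libraries. In untreated cells the enrichment of POLR1A was lower with RUVBL1 than with RPAP3 by 1.90, a difference of -1.90 ± 0.59 (95% interval -3.14 to -0.66, adjusted p = 0.235). Differences were -0.96 ± 0.51 for POLR3A, -0.82 ± 0.57 for POLR2A, 0.44 ± 0.37 for POLR2B, 0.36 ± 0.32 for POLR1B and -0.13 ± 0.35 for POLR3B. None was called by edgeR or DESeq2, where 0.407% of all genes tested were called in either direction (58 higher and 10 lower, or 46 and 19 under upper-quartile scaling) and 1497 had an unadjusted p under 0.05. POLR1A was called without RUVBL1 GFP untreated replicate 1 (-2.81, adjusted p = 0.016) and without RUVBL1 uncoupled untreated replicate 2 (-2.47, adjusted p = 0.0241), and POLR3A was called without RUVBL1 GFP untreated replicate 1 (-2.16, adjusted p = 0.00166). That omission also gave the largest difference for POLR2A (-2.02), which was not called. The smallest differences, none of them called, were -0.94 for POLR1A and -0.06 for POLR2A without RUVBL1 uncoupled untreated replicate 1 and -0.35 for POLR3A without RUVBL1 GFP untreated replicate 2. The labels do not say whether the lines were processed together, and a difference in processing cannot be told apart from one of line.

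After puromycin the enrichment was higher with RUVBL1 for each of the 6 by value, from 0.34 ± 0.37 (POLR2B) to 1.37 ± 0.59 (POLR1A, 95% interval 0.13 to 2.61, adjusted p = 0.208). None was called by edgeR or DESeq2, where 4.45% of all genes tested were called in either direction and 3221 had an unadjusted p under 0.05. The calls were 664 higher and 79 lower, or 490 and 221 under upper-quartile scaling. The difference between the lines in the puromycin change itself was 3.27 ± 0.83 for POLR1A (adjusted p = 0.708), 2.05 ± 0.73 for POLR3A (adjusted p = 0.708) and 1.87 ± 0.81 for POLR2A (adjusted p = 0.752), and it was -0.10 ± 0.52 for POLR2B. For this difference edgeR called no gene of the table, 0% of all genes tested, with 1053 at an unadjusted p under 0.05, and DESeq2 called POLR1A among the 6. POLR1A was called without RUVBL1 GFP untreated replicate 1 (4.15, adjusted p = 0.0148) and without RUVBL1 uncoupled untreated replicate 2 (3.81, adjusted p = 0.0201), and POLR3A without RUVBL1 GFP untreated replicate 1 (3.22, adjusted p = 0.000446). Without that library the value for POLR2A was 3.04, which was not called. The smallest values, none of them called, were 2.32 for POLR1A and 1.117 for POLR2A without RUVBL1 uncoupled untreated replicate 1 and 1.41 for POLR3A without RUVBL1 GFP untreated replicate 2.

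The ratio of the largest to the second largest subunit of a polymerase within a library needs no scaling between libraries, and its value depends on transcript length as well as on abundance. For RNA polymerase I, POLR1A over POLR1B was 32.6 and 63.1 in the untreated GFP libraries of the RPAP3 line and 0.705 and 0.771 after puromycin. It was 0.62 to 1.1 in the 4 uncoupled libraries of that line. In the RUVBL1 line it was 13.3 and 9.76 in untreated GFP libraries, 1.63 to 3.02 in the 6 treated GFP libraries and 0.785 to 1.53 in the 8 uncoupled libraries. The 3 sets did not overlap in the RUVBL1 line.

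For RNA polymerase III, POLR3A over POLR3B was 26.6 and 46.7 in the untreated GFP libraries of the RPAP3 line, 2.66 and 2.22 after puromycin and 2.29 to 2.73 on uncoupled beads. In the RUVBL1 line it was 31.3 and 9.74 in untreated GFP libraries, 3.32 to 4.07 in treated ones and 2.48 to 4.00 on uncoupled beads, where the last 2 ranges overlapped. For RNA polymerase II both subunits were enriched and the ratio moved less. POLR2A over POLR2B was 8.15 and 12.9 in untreated GFP libraries of the RPAP3 line, 1.17 and 1.40 after puromycin and 1.13 to 2.65 on uncoupled beads. In the RUVBL1 line it was 7.33 and 4.69 in untreated GFP libraries, 5.10 to 10.9 in treated GFP libraries and 2.77 to 6.46 on uncoupled beads, and these ranges overlapped. The ratios are given as values and were not tested.

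**Figure D4:**
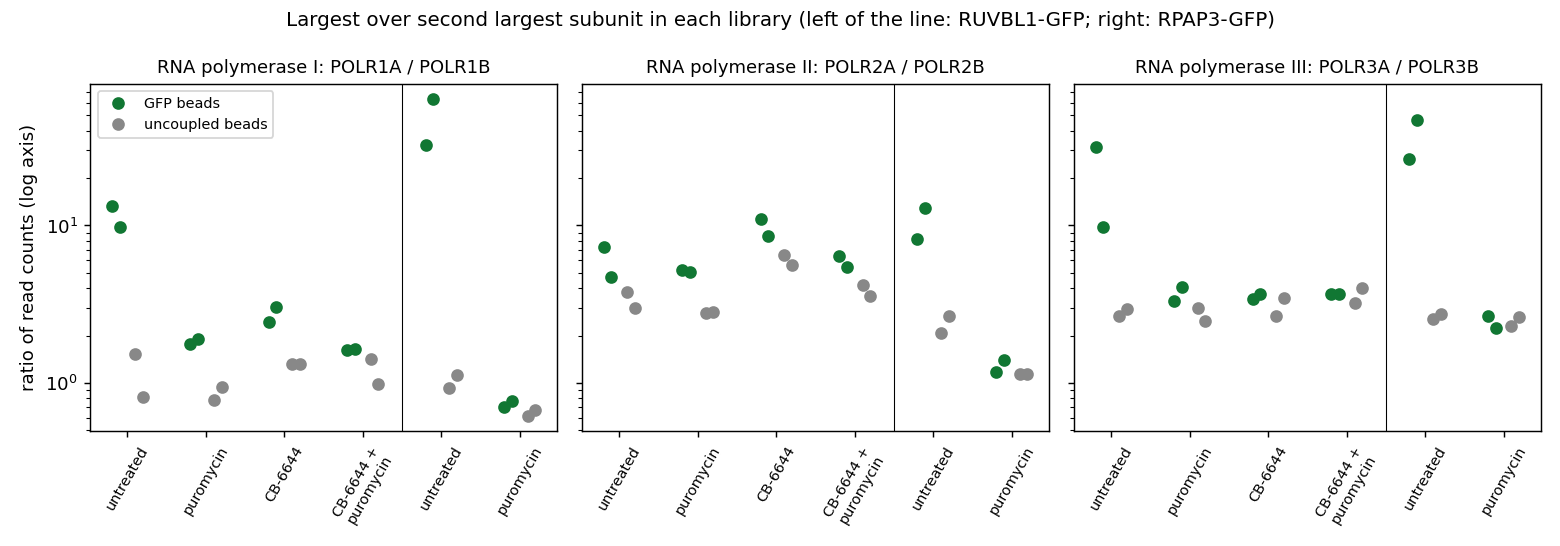
Ratio of read counts of the largest over the second largest subunit of each polymerase in each of the 24 libraries, on a log axis shared by the panels. Green points are GFP beads and grey points uncoupled beads, with the RUVBL1 line left of the vertical line. The untreated GFP libraries stand above all others for RNA polymerases I and III, and for RNA polymerase II they do so only in the RPAP3 line.

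Likeness between mRNAs was measured as the Euclidean distance between their 6 log2 enrichments, 4 of the RUVBL1 line and 2 of the RPAP3 line, over 16695 genes. POLR1A and POLR2A were each other's nearest gene among these 16695, at a distance of 0.923. POLR3A and POLR2B were each other's nearest as well, at 1.40. The next nearest to POLR1A were POLR3A (2.05) and SRCAP (2.41), and to POLR2A they were SRCAP (1.79) and POLR3A (2.03). SRCAP, which encodes the ATPase of a chromatin remodelling complex that contains RUVBL1 and RUVBL2, differed mainly with CB-6644, where its enrichment was 3.26 in this fit. After POLR2B, the nearest to POLR3A were SFI1 (1.57) and POLR2A (2.03), and after POLR3A the nearest to POLR2B were AGO3 (1.75), an Argonaute protein, and BRD8 (1.78), a TIP60 complex subunit.

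POLR1B and POLR3B lay in the dense part of the table near 0 and were closer to each other (0.707) than any other pair of the 6. Their nearest genes were nearer still, BBS2 (0.223), WDR47 (0.232) and SMG8 (0.249) for POLR1B and PTPN14 (0.186), GREB1L (0.215) and PCNX1 (0.216) for POLR3B. The widest distance among the 6 was that of POLR1A and POLR3B, 6.78. Each enrichment has its own 4 libraries, and all 6 come from 1 fit of the same lines, so the distances are descriptions. Under RLE, upper-quartile and total-count scaling the 3 nearest genes were the same for every member except POLR3B, for which 2 of 3 were shared under the last 2 scalings.

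The other subunits of the 3 nuclear polymerases, 26 genes, gave no call of enrichment in untreated cells of either line. Their median enrichment was -0.05 with RUVBL1 (-0.54 to 0.96) and 0.00 with RPAP3 (-0.35 to 0.29), against -0.04 and -0.01 for all genes tested. None of the 26 was called in any change of enrichment with a drug or in any difference between the lines. With puromycin in the RUVBL1 line 4 of the 26 lay below background on GFP beads, where 3.82% of all genes tested were called lower. These were POLR1D (-0.99 ± 0.28, adjusted p = 0.0204), POLR2I (-0.90 ± 0.27, adjusted p = 0.0308), POLR2M (-1.02 ± 0.31, adjusted p = 0.0341) and POLR2K (-0.81 ± 0.26, adjusted p = 0.0433). Over all genes there were 611 such calls, 1181 under upper-quartile scaling, and 6 (without uncoupled puromycin replicate 1) to 210 (without uncoupled puromycin replicate 2) with 1 of the 4 libraries left out. POLR1D, POLR2I and POLR2K lost their call without any 1 of the 4 libraries compared (-1.16 to -0.70, adjusted p = 0.0827 to 0.314). POLR2M lost it without 3 of them, GFP puromycin replicates 1 and 2 and uncoupled puromycin replicate 1 (-1.14 to -0.77, adjusted p = 0.163 to 0.324).

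On uncoupled beads of the RPAP3 line, 6 of the 26 other subunits were called higher with puromycin, near the share of all genes tested (23.5%), among them POLR1C (0.91 ± 0.14) and POLR1G (0.87 ± 0.13). Called lower were 14 of the 26, against 19.4% of all genes tested, among them POLR2L (-0.92 ± 0.14) and POLR2I (-0.84 ± 0.12), each of these 4 with an adjusted p of 2.27e-05 or less. POLR3E (higher), POLR2F, POLR1H and POLR2M (lower) lost their call without at least 1 of the 4 libraries compared. POLR3E also lost it under upper-quartile scaling and POLR2M with DESeq2. The median of the 26 was -0.50, while that of the 6 large-subunit mRNAs was 0.73 and that of all genes tested was -0.06.

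**Figure D5:**
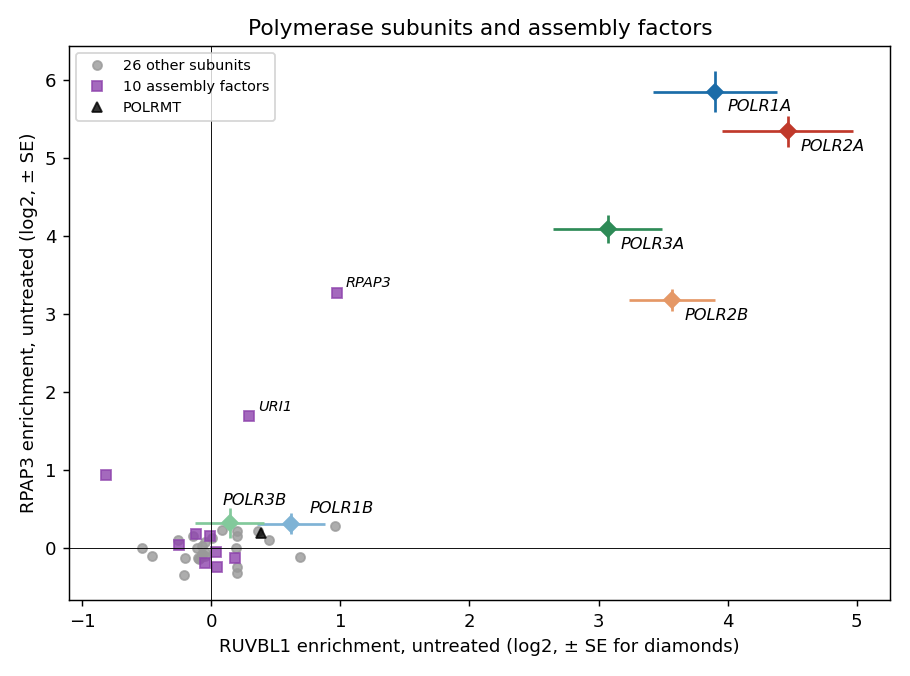
Enrichment in untreated cells with RUVBL1 (horizontal axis) and with RPAP3 (vertical axis), both as log2 differences between GFP beads and uncoupled beads. Diamonds are the 6 large-subunit mRNAs with SE bars, grey points the 26 other subunits, squares the 10 assembly factors and the triangle POLRMT. The diamonds of POLR1A, POLR2A, POLR3A and POLR2B lie alone at the upper right. Those of POLR1B and POLR3B lie near the other subunits, within their range with RUVBL1 and just above it with RPAP3.

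Of 10 polymerase assembly factors, 3 were called enriched with RPAP3 in untreated cells, where 1.53% of all genes tested were called higher. RPAP3 itself, the mRNA of the tagged protein, was at 3.27 ± 0.14 (adjusted p = 4.23e-13) and its enrichment fell by 3.36 ± 0.19 with puromycin (adjusted p = 1.28e-10). URI1, a prefoldin-like protein, was at 1.69 ± 0.22 (adjusted p = 0.00121) and RPAP2, a phosphatase of the RNA polymerase II tail, at 0.94 ± 0.16 (adjusted p = 0.00139). Both lost the call without uncoupled untreated replicate A (1.71 and 0.86, adjusted p = 0.158 and 0.0855), and RPAP2 also lost it in the fit of all 24 libraries (0.91, adjusted p = 1.0). With RUVBL1 in untreated cells none of the 10 was called. On uncoupled beads of the RPAP3 line, 4 of the 10 were called higher with puromycin and 3 lower, against 23.5% and 19.4% of all genes tested. Of these, GPN2 (higher), PFDN2 and PDRG1 (lower) lost their call without at least 1 of the 4 libraries compared.

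With puromycin in the RUVBL1 line, RPAP1 was called higher on GFP beads (1.11 ± 0.26, adjusted p = 0.00594). GPN3, a GTPase, was called lower (-0.80 ± 0.24, adjusted p = 0.0293). That is 1 of 10 in each direction, against 9.95% of all genes tested called higher and 3.82% called lower. RPAP1 lost its call without GFP puromycin replicate 2 or either uncoupled puromycin replicate (0.85 to 1.24, adjusted p = 0.0557 to 0.147), and GPN3 lost its call without any 1 of the 4 libraries (-0.96 to -0.62, adjusted p = 0.0537 to 0.325). With CB-6644, RPAP3 mRNA was higher on GFP beads of this line than on uncoupled beads (2.52 ± 0.45, adjusted p = 0.0139), and UXT was lower (-0.99 ± 0.26, adjusted p = 0.045). Of all genes tested, 1.87% were called higher and 0.557% lower. The RUVBL1 enrichment of RPAP3 mRNA was 0.97 ± 0.43 in untreated cells (adjusted p = 0.426). None of the 10 was called in the puromycin change or the CB-6644 change of RUVBL1 enrichment. RPAP3 lost its call without uncoupled CB-6644 replicate 1 or 2 (2.58 and 2.46, adjusted p = 0.171 and 0.27). UXT lost its call under total-count scaling (-0.76, adjusted p = 0.0596) and without GFP replicate 2 or uncoupled replicate 1 or 2 of that treatment (-0.77, -1.04 and -0.95, adjusted p = 0.198 to 0.317).

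POLRMT, the single-subunit RNA polymerase of mitochondria, was not enriched in untreated cells of either line (0.39 ± 0.28 with RUVBL1, adjusted p = 0.638, and 0.19 ± 0.12 with RPAP3, adjusted p = 0.812). With puromycin it was higher on GFP beads of the RUVBL1 line than on uncoupled beads (1.62 ± 0.28, adjusted p = 0.000699). With CB-6644 the POLRMT enrichment in this line was 0.97 and was not called. It was called under RLE and total-count scaling, without a low-count filter, with DESeq2 and in the fit of all 24 libraries (1.01 to 1.26). The puromycin change of its RUVBL1 enrichment was 1.23 ± 0.39 and did not pass (adjusted p = 0.246), though it was called without uncoupled untreated replicate 2 (1.497, adjusted p = 0.0485).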

How the data were processed

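The authors deposited 1 table of raw read counts per gene over 24 libraries, whole numbers that were not normalized. Per the submitters' processing notes, reads were handled with TopHat2 2.1.1 and featureCounts 2.0.3 on build hg38, after bcl2fastq 2.20.0.422 and with FastQC 0.11.9 for quality. The SMART-seq kit named in the labels' protocols keeps strand. How featureCounts treated strand and multiply placed reads, and which annotation it used, is not given in the sources used here, so reads of overlapping, antisense or near-identical genes may be split or merged. No molecular identifiers are recorded, so PCR copies were counted as reads.

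The 16 RUVBL1 libraries (15976 genes), the 8 RPAP3 libraries (15202 genes) and, for differences between lines and for distances, all 24 (16695 genes) were fitted with edgeR 4.0.16 in R 4.3.3, and their common biological coefficients of variation were 0.263, 0.142 and 0.229. Settings were filterByExpr, TMM scaling, robust glmQLFit, glmQLFTest and Benjamini-Hochberg adjustment over all genes tested, called under 0.05, with no replicate block. Changes are interactions. Standard errors derive from the F statistic, whose variance is pooled over the fit and moderated across genes. Alternatives were RLE, upper-quartile and total-count scaling, no low-count filter, DESeq2 1.42.0, a replicate block, 1 fit of all libraries, and each library left out. With 1 library left in a group, that library is assumed to vary like the other groups. The scripts were checked on data made from the real means with known changes.

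Same-numbered libraries did not deviate together consistently. Over 28 pairs of groups in the RUVBL1 line the correlation of deviations was -0.41 to 0.27 (median 0.04, with 4 pairs over 0.1). Over 6 pairs in the RPAP3 line it was -0.12 to 0.16 (median 0.02, with 2 pairs over 0.1). Replicate pairs differed by more than sampling noise (chi-square per degree of freedom 12.9 to 93.1), so none were merged. The 6 mRNAs, the lists of 26 other subunits and 10 assembly factors, and the tests were chosen with earlier results of these data known. Named genes are the 6, for each the 3 genes at the smallest distance, POLRMT, and the list members called in a comparison. Of the 20 other subunits called on uncoupled beads of the RPAP3 line, the text names the 2 furthest from 0 in each direction.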

Additional observations from a re-analysis of the deposited data

Results flagged for a closer look

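POLRMT, the single-subunit polymerase of mitochondria, differed between the lines after puromycin by a test of the difference itself. Its enrichment was higher with RUVBL1 than with RPAP3 by 1.60 ± 0.34 on the log2 scale (adjusted p = 0.00551, edgeR's quasi-likelihood test with Benjamini-Hochberg adjustment, 2 libraries per group). The enrichments were 1.62 with RUVBL1 and 0.05 with RPAP3, each in the fit of its own line, while the difference comes from the fit of all 24 libraries. Its level on uncoupled beads rose by 1.52 ± 0.13 with puromycin in the RPAP3 line (adjusted p = 5.11e-09) and was at -0.03 ± 0.28 in the RUVBL1 line (adjusted p = 0.983). The part of this background in the difference was not tested. The call was lost without RUVBL1 GFP puromycin replicate 2 (1.25, adjusted p = 0.0943) and without RUVBL1 uncoupled puromycin replicate 1 (1.52, adjusted p = 0.0557).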

How the results depend on the processing

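Of 1326 values of the 6 mRNAs under alternatives, 1262 stayed on the same side of the threshold, 16 lost a call, 48 gained a call and no call reversed its direction. Counts of members called did not move by over 1.5 times for enrichment in untreated cells of either line, for the puromycin change in the RPAP3 line and for its uncoupled beads. Without a low-count filter the counts were 3 for RUVBL1 enrichment with puromycin, 4 with CB-6644, 4 for the puromycin change and 4 for the CB-6644 change of the RUVBL1 line, and 1, 2 and 2 for the differences between lines (untreated, puromycin, puromycin change). With DESeq2 the first 4 of these were 2, 3, 4 and 4, and the last was 1. With a replicate block they were 2 for RUVBL1 enrichment with puromycin, 1 with CB-6644 and 3 for the CB-6644 change, and the block moved no other count by over 1.5 times. Same-numbered libraries share only a number. In 1 fit of all 24 libraries the counts were 2 with CB-6644 and 3 for the CB-6644 change, and under total-count scaling 1 for the puromycin change in the RUVBL1 line. With 1 library left out they were 0 for RUVBL1 enrichment with puromycin, 1 to 4 for either drug's change in the RUVBL1 line, and 0 to 2 for the differences between lines untreated and in the puromycin change. The causes were not tested.

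Counts over all genes moved more. RUVBL1 enrichment called 146 genes higher in untreated cells, 40 to 184 with 1 library left out and 100 to 382 under other settings. RPAP3 enrichment called 233, then 113 to 276 and 56 to 312. The puromycin change called 12 genes lower in the RUVBL1 line (9 to 48 under other settings) and 37 in the RPAP3 line (16 to 52). The CB-6644 change called 8 lower (5 to 73 under other settings). With 1 library left out, that last count moved most without replicate 1 on GFP beads with CB-6644. Total-count scaling moved the median of all genes to 0.26 for RUVBL1 enrichment with CB-6644, 0.30 for the CB-6644 change and -0.20 for the puromycin change under CB-6644, and upper-quartile scaling moved it to -0.23 on uncoupled beads of the RPAP3 line. Within-library ratios have no scaling to vary. With 1 library left out, enrichment called 18 to 67 genes higher with both drugs (89 with all libraries) and 12 to 108 in the RPAP3 line with puromycin (70). The difference between lines called 8 to 104 higher and 2 to 50 lower in untreated cells (58 and 10), and 81 to 716 and 0 to 53 with puromycin (664 and 79). Precision is limited by 2 libraries per group, and POLR3B had as few as 91 counts in a library; the part of depth in its values was not tested.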
